A study of Mus musculus with 2 samples.

Results

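Intermediate progenitor cells (IPCs) with few or no UMIs of 2 division genes and of 2 neuronal genes were examined in single-cell RNA-sequencing data of the embryonic mouse cortex. The members were chosen by measured UMIs of marker genes, and a cell was taken if it held at least 3 UMIs of Eomes, at most 2 of Mki67 and Top2a together, at most 2 of Neurod2 and Neurod6 together, at most 2 of Dlx1 and Dlx2 together and none of Trp73. UMIs, the barcodes added to each captured RNA molecule, were the unit counted. Outside division denotes here at most 2 UMIs of Mki67 and Top2a. By this gate 74 of 3182 retained cells were members, with 25 of 1211 (2.06%, exact 95% binomial interval 1.34 to 3.03) in replicate 2 and 49 of 1971 (2.49%, 1.84 to 3.27) in replicate 4. Both libraries came from the dorsal telencephalon of wild-type embryos at embryonic day 14.5. The labels name the EomesDot line and the genotype WT, whereas the study describes C57BL/6J embryos, and how these relate is not given in the sources used here. With a single group, conditions could not be compared, so the members were set against other cells of the same libraries. The study used such data to ask which signals from somatostatin-positive interneurons could reach radial glial cells (RGCs) and IPCs.

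IPCs arise from RGCs, the stem cells lining the ventricle, and move to the subventricular zone, where most of them divide and give rise to glutamatergic neurons. The T-box factor Eomes (also called Tbr2) marks this stage. The proneural factor Neurog2 acts upstream of Eomes, while Neurod1, Neurod2 and Neurod6 follow as cells become neurons. Gadd45g is a growth-arrest and stress-response gene known to be induced by proneural factors, and Mfap4 encodes a protein of the extracellular matrix.

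Few Eomes-positive cells met the gate. Of 654 cells with at least 3 Eomes UMIs, the members made up 11.3% (exact 95% binomial interval 8.99 to 14). Another 459 were outside division but carried at least 3 Neurod2 and Neurod6 UMIs, and are called Eomes-retaining neurons here. A further 85 combined such Neurod2 and Neurod6 counts with at least 3 UMIs of the division genes Mki67 and Top2a. Only 22 divided without them (12 in replicate 2 and 10 in replicate 4), and these are called dividing IPCs. The remaining cells carried Trp73 (13 cells) or Dlx1 and Dlx2 (3 cells), with some counted under both. At least 3 Neurod2 and Neurod6 UMIs were found in 73.3% and 83.9% of the dividing Eomes-positive cells of replicates 2 and 4. In dividing RGCs without Eomes, which should lack these genes, the share was 3.61% and 3.67%, at median depths of 36785 and 32286.5 UMIs against 29238 and 32973. In Gad2-positive cells, which should lack them too, it was 9.41% and 5.17% at 21823 and 14278.5 UMIs. These intervals cover counting error only.

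**Figure D1:**
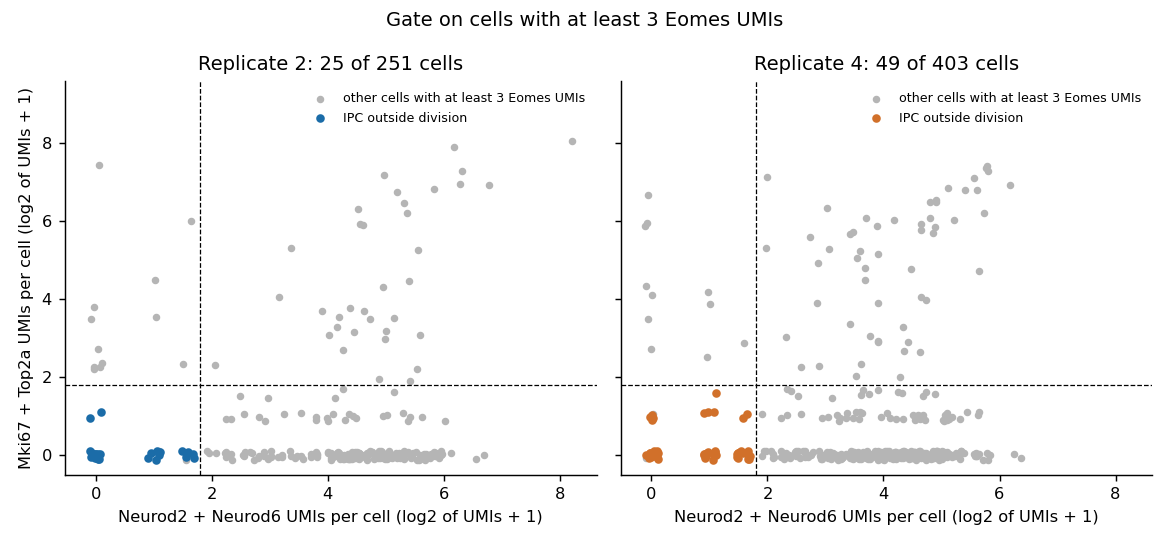
Cells with at least 3 Eomes UMIs in replicate 2 (left) and replicate 4 (right), by their Neurod2 and Neurod6 UMIs (x) and their Mki67 and Top2a UMIs (y), both as log2 of UMIs + 1 with small random offsets. Dashed lines mark the gate, coloured points are the 25 and 49 members, and most other cells lie to the right, with Neurod2 and Neurod6 UMIs.

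Just inside and outside the thresholds, the values went over smoothly for Neurod2 and Neurod6 and less so for Eomes, as a description of the gate. Members with 1 or 2 Neurod2 and Neurod6 UMIs (11 and 32 cells) had 1031 and 833 CPM of Gadd45g, and cells with 3 or 4 such UMIs (10 and 22 cells) had 1051 and 790 CPM. CPM denotes counts per 1e+06 UMIs of the summed cells. Members with exactly 3 Eomes UMIs (3 and 5 cells) had 668 and 407 CPM of Gadd45g, against 98.9 and 136 CPM in cells with 2 (3 and 4 cells). No Mki67 or Top2a UMI was found in 23 of 25 and 39 of 49 members, as 2 and 10 members carried 1 or 2.

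Members were deeply sampled cells. They held a median of 32858 UMIs (10367 to 53395) and 6100 genes in replicate 2, and 24341 UMIs (6070 to 46676) and 5348 genes in replicate 4. Their summed UMIs were 779014 and 1174776, whereas the dividing IPCs summed to 342892 and 326294. Of the whole libraries, with 1712 and 2589 barcodes, 3 barcodes occurred in both, and none of these was a member of both. Scrublet called 12 and 48 doublets, none of them a member.

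The label was checked against its markers. Eomes served as gate. Neurog2 (ENSMUSG00000027967) was found in 23 of 25 and 49 of 49 members, Gadd45g (ENSMUSG00000021453) in 23 of 25 and 47 of 49, and Mfap4 (ENSMUSG00000042436) in 17 of 25 and 29 of 49. With each cell thinned to 5000 UMIs, the shares were 84% and 91.8% for Neurog2, 84% and 81.6% for Gadd45g, and 48% and 36.7% for Mfap4. In Eomes-negative excitatory neurons (0 Eomes, at least 3 Neurod2 and Neurod6 UMIs, outside division), the thinned shares were 7.09% and 6.35%, 7.35% and 10.7%, and 9.45% and 12%, in the same order. All members reached this depth, while 12 and 11 of the neurons were left out. The cortical factor Emx1 was found in 19 of 25 and 38 of 49 members. The gate limited neuronal and division genes without removing them. Neurod2 and Neurod6 gave 1 or 2 UMIs in 11 and 32 members, and other neuronal genes were common, with Tubb3 in 18 of 25 and 38 of 49, Dcx in 14 and 21 and Neurod1 in 7 and 9. The S-phase genes described further on exceeded their limit in 36% and 53.1% of members.

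Markers of other cell types were low in the members, with exceptions. Of 7 microglia genes, C1qa, C1qb, C1qc, Tyrobp and Aif1 were at 0, as were Col1a1, Col1a2, Lum, Cldn5 and Rgs5 of the 10 vascular and meningeal markers. The summed level of the microglia genes was 7.70 and 5.11 CPM. That of the vascular and meningeal markers was 19.3 and 30.6 CPM, against 2.92 and 0 CPM in dividing IPCs, 1.81 and 23.4 CPM in Eomes-retaining neurons and 1199 and 1980 CPM in RGCs outside division, and 1 of 25 and 2 of 49 members held at least 5 such UMIs (up to 14). Of 12 genes of the GABAergic lineage, Gad1, the GABA-synthesising enzyme, Sp9 and Dlx6 were at 0, and the others had UMIs. The list summed to 175 and 124 CPM, against 122 and 156 CPM in dividing IPCs. It summed to 50.6 and 33.7 CPM in Eomes-retaining neurons and 118 and 85.3 CPM in RGCs outside division. At least 5 such UMIs were held by 10 of 25 and 12 of 49 members (up to 24). The same held for 4 of 12 and 4 of 10 dividing IPCs and 20 of 173 and 9 of 286 Eomes-retaining neurons. In RGCs outside division it was 16 of 61 and 14 of 116 cells. Reln, the secreted glycoprotein of Cajal-Retzius cells, reached at least 10 UMIs in 5 of 25 members of replicate 2 (up to 83 UMIs) and in 1 of 49 of replicate 4. The summed level of the 6 Cajal-Retzius genes was 383 CPM in replicate 2 and 72.4 CPM in replicate 4. Erythroid genes, the mark of free RNA from blood, summed to 64.2 and 226 CPM, and hem and choroid plexus genes to 39.8 and 34 CPM. The 6 Reln-rich members are described further on. Cells with at least 10 Reln UMIs in any population are called Reln-rich cells. The larger changes in calls without all of these cells are given beside the results. That exclusion left 20 and 48 members and 168 and 264 Eomes-retaining neurons, from 173 and 286. It left 60 and 116 RGCs outside division.

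Levels of the 3 markers were then compared over 5 populations in the summed UMIs of each library. Among the 5 populations, Gadd45g was highest in the members, at 706 and 703 CPM in replicates 2 and 4. It stood at 385 and 334 CPM in dividing IPCs, 357 and 280 CPM in Eomes-retaining neurons, 39.6 and 41.9 CPM in RGCs outside division (0 Eomes, at least 3 Hes5 and Slc1a3 UMIs) and 26.1 and 23.6 CPM in Eomes-negative neurons. In both libraries the members lay above the other populations, and the dividing IPCs and Eomes-retaining neurons overlapped with each other. The Eomes-retaining neurons nearest the gate, with 3 or 4 Neurod2 and Neurod6 UMIs, had 1051 and 790 CPM. High Gadd45g was thus not particular to the members. Neurog2 reached 634 and 775 CPM in the members, 717 and 420 CPM in dividing IPCs and 522 and 450 CPM in Eomes-retaining neurons. Members and dividing IPCs thus overlapped for Neurog2, while RGCs held 115 and 87.6 CPM and Eomes-negative neurons 16.2 and 11.5 CPM. Mfap4 did not peak in the members. Its level was 186 and 138 CPM there, 23.3 and 49.0 CPM in dividing IPCs and highest in Eomes-retaining neurons, at 253 and 228 CPM.

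Since Gadd45g peaked in the members in both libraries, the 250 bases before its start are shown (RefSeq promoter table, GRCm38.p6, chr13:51846425-51846674, plus strand). Capitals mark an E-box, CAGCTG, at 55 to 50 bases before the start, and a match to the T-box motif GGTGTNA on the minus strand, at 198 to 192 bases.
Gadd45g: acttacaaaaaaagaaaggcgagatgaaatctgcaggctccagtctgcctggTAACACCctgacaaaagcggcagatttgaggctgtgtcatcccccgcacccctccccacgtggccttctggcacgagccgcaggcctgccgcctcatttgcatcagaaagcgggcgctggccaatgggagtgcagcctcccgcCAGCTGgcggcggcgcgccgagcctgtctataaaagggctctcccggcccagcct
E-boxes are bound by proneural factors and T-box motifs by factors such as Eomes. Among 27025 genes with a promoter in that table, CAGCTG occurred on either strand in 14.7%, the E-box CAGATG in 16.3% and GGTGTNA in 9.84%. A gene counted if any of its listed starts held the motif, and a match describes letters, not a binding site.

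**Figure D2:**
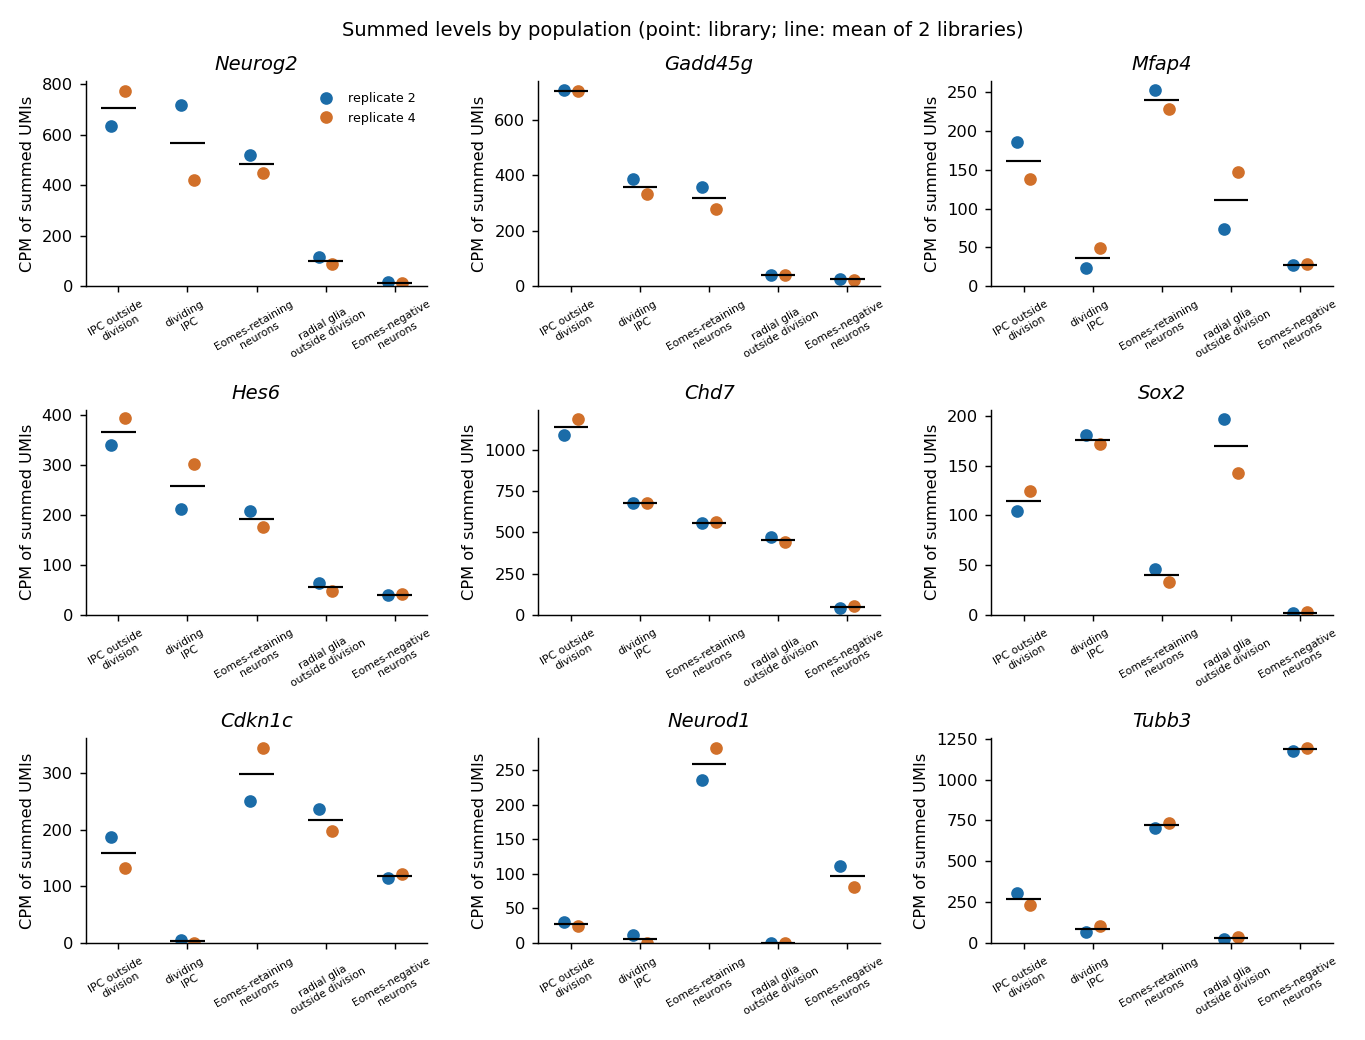
Summed level of 9 genes (CPM, linear axes from 0) in each population. Points are the 2 libraries and lines their means. Gadd45g, Hes6 and Chd7 were highest in the members, Neurod1 in Eomes-retaining neurons and Tubb3 in Eomes-negative neurons.

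Differences were tested with edgeR's quasi-likelihood test on the sums, with Benjamini-Hochberg adjustment over 12635 genes and calls at an adjusted p under 0.05. The sums stand for 2 libraries, so the p-values measure the spread between these samples. In bulk sums, fewer cells with a gene and less RNA per cell cannot be told apart. The 10 gate genes were left out. Division separated the members from dividing IPCs, and Neurod2 and Neurod6 separated them from Eomes-retaining neurons. Eomes, and the Hes5 and Slc1a3 UMIs required of RGCs, separated them from RGCs outside division. Genes that follow those gate genes had to differ. Such differences are given as a description.

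Against dividing IPCs, the members had higher levels of some IPC, guidance receptor and early neuronal genes, such as Gadd45g, Unc5d and Elavl2, and lower levels of the division genes. In total 716 genes (5.67%) were called, with 258 higher (2.04%) and 458 lower (3.62%). Cdkn1c, which encodes the cyclin-dependent kinase inhibitor p57, stood at 187 and 132 CPM in the members and at 5.83 and 0 CPM in dividing IPCs. This is a log2 fold change of 5.77 ± 0.59 (SE, n = 2 libraries, edgeR adjusted p = 0.00148). The libraries did not overlap between the populations, but a single member carried 58.9% of the Cdkn1c UMIs of replicate 2, and 8 of 25 and 20 of 49 members had any. Gadd45g was 2.03-fold higher (log2 1.02 ± 0.15, edgeR adjusted p = 0.00700). Sstr2, a somatostatin receptor, rose from 8.75 and 6.13 CPM to 39.8 and 48.5 CPM (log2 2.63 ± 0.38, edgeR adjusted p = 0.00608).

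Of 24 tested genes of the IPC list, 8 were higher (Igsf8, Chd7, Slc17a6, Lzts1, Mfap4, Sstr2, Gadd45g and Mfng), none was lower, and 16 were not called. The list's median log2 fold change was 0.89, beside 0.08 over all genes tested. Lzts1, which is known to act in the detachment of cells from the ventricular surface, was 2.94-fold higher (log2 1.56 ± 0.17, edgeR adjusted p = 0.00177). Neurog2 (log2 0.36 ± 0.26), Insm1 (-0.20 ± 0.30), Hes6 (0.56 ± 0.21) and Btg2 (0.51 ± 0.15) were not called. Leaving out the Reln-rich cells, 9 of 24 were called as higher, with Btg2 (log2 0.73, edgeR adjusted p = 0.0483, over all alternatives 0.0483 to 0.995) and Elavl4 joining and Slc17a6 dropping out.

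The migration genes called as higher were all guidance receptors. Of 25 tested genes of multipolar migration, 4 were higher and none lower, with a median of 0.79. The netrin receptors Dcc and Unc5d rose by 1.39 ± 0.16 and 5.48 ± 0.60 on the log2 scale, the Slit receptor Robo2 by 2.20 ± 0.35 and the semaphorin receptor Nrp2 by 6.19 ± 0.99. In dividing IPCs, Unc5d rested on 3 and 1 UMIs and Nrp2 on 0 and 1. Without the Reln-rich cells, neither Robo2 nor Nrp2 was called (log2 1.41 and 4.83), and Dcc was not called without the vascular, meningeal, hem and choroid plexus cells described under the RGC gate. Unc5d was called under all 15 alternatives.

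Early neuronal genes were raised in part. Of 25 tested, 4 were higher (Elavl2, Tubb3, Rbfox3 and Sox4) and none lower, with a median of 1.08. The neuronal tubulin Tubb3 stood at 309 and 231 CPM against 70 and 104 CPM (3.21-fold, log2 1.68 ± 0.26, edgeR adjusted p = 0.00774). The RNA-binding protein gene Elavl2 was 2.73-fold higher (log2 1.45 ± 0.20, edgeR adjusted p = 0.00493). Neurod1 (log2 2.25 ± 0.72) and the microtubule-associated gene Dcx (2.20 ± 0.62) were not called, though 1 and 4 of 15 alternatives called them (edgeR adjusted p 0.00385 to 0.956 and 3.82e-12 to 0.768). With the Reln-rich cells left out, 5 of 25 were higher, Elavl4 among them, and Stmn1 was lower (median log2 0.68).

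All 25 tested genes of G2 and M phase were lower (median log2 -5.01), as the gate had to give. The mitotic motor gene Kif4 and Hmmr, a spindle-associated gene of that list, were at 0 in the members and thus at least 101-fold and 44-fold lower, computed against a floor of 3 counts over both libraries. Of 25 S-phase genes, 19 were lower and 6 were not called (median log2 -2.40). The clamp gene Pcna fell from 358 ± 73.9 to 64.6 ± 13.3 CPM (mean ± SD, n = 2). Most RGC genes were not called against dividing IPCs, which does not show equal levels. Of 23 tested, Nes, Fabp7 and Id4 were lower and none was higher (median log2 -0.28), while Sox2 (-0.57 ± 0.26) and Pax6 (-0.67 ± 0.26), both stem cell factors, were not called. Fabp7 and Nes turned to the opposite sign with the gate on thinned UMIs. The Notch receptor gene Notch2 stood at 42.4 and 80.0 CPM in the members and at 201 and 190 CPM in dividing IPCs (log2 -1.59 ± 0.25, edgeR adjusted p = 0.00857).

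Genes of cell cycle exit and G1 went both ways, with Gadd45a, Gadd45g, Cdkn1c and Trp53inp1 higher and the G1 kinase gene Cdk6 and E2f3 lower of 25 tested (median log2 -0.13). Of 22 genes of delamination and polarity, only Arhgap11a was called, as lower (median log2 0.12). Several calls against the 22 dividing IPCs were lost under other settings. With the gate applied to cells thinned to 10000 UMIs, a number of genes named above were not called. These were Gadd45g, Chd7, Sstr2, Mfap4, Igsf8, Lzts1 and Mfng of the IPC list, Tubb3, Elavl2, Rbfox3 and Sox4 of the early neuronal list, and Cdkn1c, Robo2, Notch2 and Id4. With the gate unchanged and the sums taken over UMIs thinned to 10000 a cell, Gadd45g, Sstr2, Mfap4, Elavl2, Rbfox3, Notch2, Id4, Nes, Cdk6 and E2f3 were not called. With the thinned gate Gadd45g differed by 0.42 on the log2 scale and Cdkn1c by 0.88, and the adjusted p-values over 15 alternatives reached 0.464 for Gadd45g and 0.415 for Cdkn1c.

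**Figure D3:**
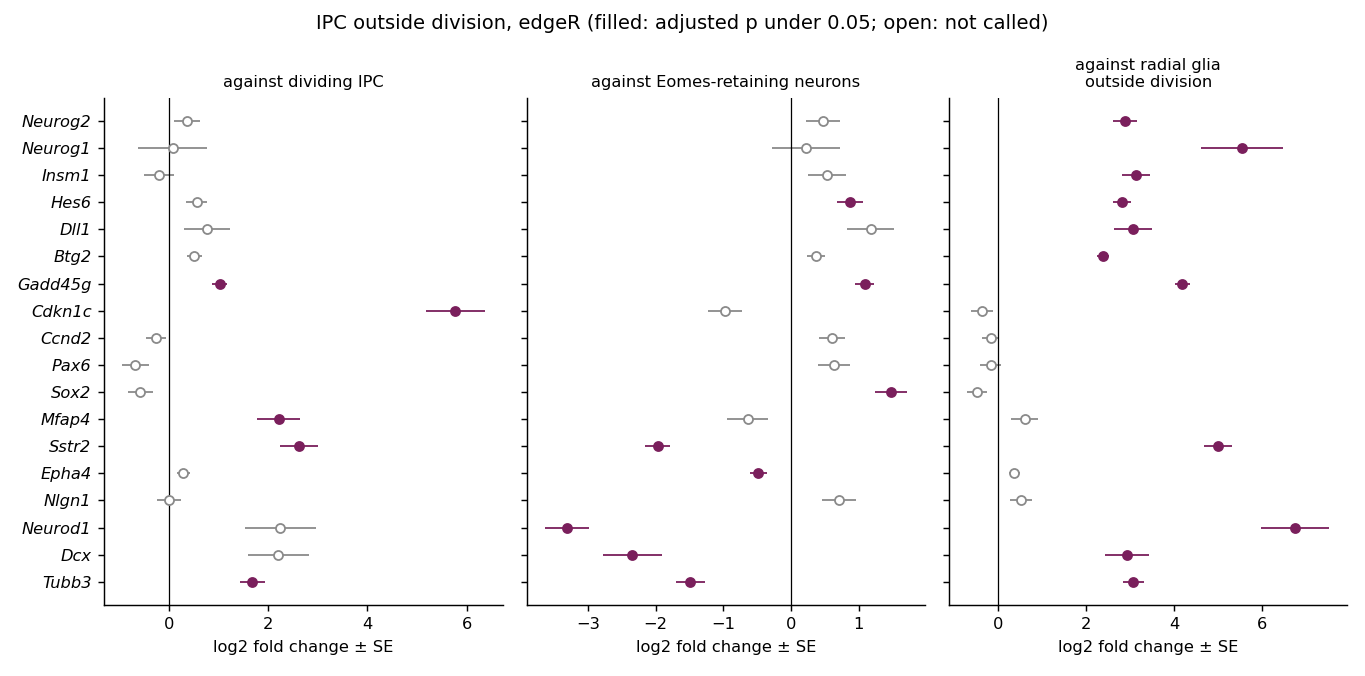
Log2 fold changes ± SE of 18 fixed genes in the members against dividing IPCs, Eomes-retaining neurons and RGCs outside division. Filled points are called and open points are not. The axes differ between panels, and Gadd45g is called as higher in each of them.

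Against Eomes-retaining neurons, the members had higher levels of most RGC genes and lower levels of most early neuronal genes. In total 862 genes (6.82%) were called, with 468 higher (3.7%) and 394 lower (3.12%). Without the cells of at least 10 Reln UMIs, 1316 were called, of which 803 were among the 862. Neurod1, the factor between Eomes and neuronal differentiation that the gate did not use, stood at 30.8 and 24.7 CPM in the members and 236 and 282 CPM in Eomes-retaining neurons. This is a 9.90-fold difference (log2 -3.31 ± 0.33, edgeR adjusted p = 0.00159) with no overlap between libraries.

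Of 25 tested early neuronal genes, 15 were lower and none higher (median log2 -1.04, beside 0.00 over all genes tested). Among them were Dcx (log2 -2.34 ± 0.44), Tubb3 (-1.49 ± 0.22) and the SoxC factors Sox11 (-1.60 ± 0.21) and Sox4 (-0.65 ± 0.15). Elavl2 was not called. Without the Reln-rich cells, 20 of 25 were lower, Elavl2 included (median log2 -1.57), and without the vascular, meningeal, hem and choroid plexus cells 14 were, with Sox4 no longer called. Migration genes were lower in 9 of 25 cases and higher in 2 (median log2 -0.50), and 11 were lower without the Reln-rich cells, Dcc and Nrp2 among them (median log2 -0.92). Unc5d rose from 330 and 189 CPM in the members to 2229 and 3577 CPM, Robo2 from 676 and 627 CPM to 1909 and 3605 CPM, and Plxna4, a semaphorin co-receptor, differed by 3.55 ± 0.57 on the log2 scale. Dcc was at 8923 and 7383 CPM in the members and 8211 and 9058 CPM in Eomes-retaining neurons, with overlapping libraries and no call (log2 -0.15 ± 0.16). It was called as lower without the Reln-rich cells.

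RGC genes were higher in 19 of 23 cases and lower in none (median log2 2.57). Sox2 was found at 104 and 124 CPM against 46.1 and 33.1 CPM (2.78-fold, log2 1.47 ± 0.24, edgeR adjusted p = 0.00817). Vim, the intermediate filament of progenitors, and Fabp7, a fatty acid-binding protein of RGCs, were 3.47-fold and 3.71-fold higher. The metallothioneins Mt3 (208 and 218 against 11.8 and 9.59 CPM) and Mt2 and the growth-arrest gene Gas1 (153 and 142 against 25.9 and 11.1 CPM) were among the called genes with large differences. Of the Notch list, Notch1, Notch2, Notch3, Maml2, Hes1 and Hes6 were higher and Hey1 lower among 22 tested, with 15 not called (median log2 0.26). Hes1 was not called under either cell exclusion. Hes6, which opposes Hes1, was 1.83-fold higher (log2 0.88 ± 0.19, edgeR adjusted p = 0.0298). The ligand gene Dll1 stood at 91.1 and 72.4 against 36.9 and 31.9 CPM and missed the threshold (log2 1.17 ± 0.35, edgeR adjusted p = 0.0804). It was called under 7 of 15 alternatives (adjusted p 0.000113 to 0.122), the fit with the library as block included (log2 1.18, edgeR adjusted p = 0.0434), and both cell exclusions.

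The IPC list split. Among 24 tested, Hes6, Chd7 and Gadd45g were higher, whereas Neurod1, Cxcl12, Slc17a6 and Sstr2 were lower (median log2 -0.27). Sstr2 reached 159 and 175 CPM in Eomes-retaining neurons, above the 39.8 and 48.5 CPM of the members (log2 -1.97 ± 0.18). Mfap4 (log2 -0.64 ± 0.30) and Cdkn1c (-0.98 ± 0.25, edgeR adjusted p = 0.0508) were not called, though 1 and 5 of 15 alternatives called them. No G2 and M phase gene among 25 was called (0 of 25, median log2 0.06), and of 25 S-phase genes only Mcm6 and Ung were called, as higher (median log2 0.86). Either exclusion of cells, of the Reln-rich ones or of those of other types, gave 6 such genes, with Chaf1b, Hells, Mcm3 and Pcna besides. Of 22 genes of delamination and polarity, Tjp1 and Plekha7 of cell junctions were higher and the zinc-finger gene Scrt2 lower (median log2 0.02), and of 9 immediate early and stress genes only Jun was called, as higher. Ntng1, a netrin-related gene, was called as higher too, but 74.6% of its UMIs in replicate 2 came from a single member.

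Against RGCs outside division, the members had higher levels of most IPC genes, Neurog2, Insm1 and Dll1 among them, and lower levels of some RGC genes. Genes that follow Eomes, Hes5 or Slc1a3 had to differ here by the gate. In total 1507 genes (11.9%) were called, with 725 higher (5.74%) and 782 lower (6.19%). The RGC gate also held cells of other types. At least 5 UMIs of vascular and meningeal markers were found in 10 of 61 and 27 of 116 of its cells, and at least 5 UMIs of hem and choroid plexus markers in 14 of 61 and 14 of 116. The rule for naming genes accordingly gave Col1a1, Col1a2, Lum, Vtn, Colec12 and Arhgap29 as lower in the members, all with 0 UMIs in members. When cells with at least 5 UMIs of either kind were left out of every population, which left 21 and 45 members and 41 and 83 RGCs, 939 genes were called, 716 of them among the 1507, and 550 were higher and 389 lower.

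Of 24 tested IPC genes, 20 were higher and Cxcl12 was lower (median log2 3.1, beside -0.0041 over all genes tested). Without those cells, 22 of 24 were higher and none lower (median log2 2.97). Gadd45g differed by 4.19 ± 0.17 on the log2 scale (18.2-fold, edgeR adjusted p = 8.32e-06). Neurog2 was 7.40-fold (log2 2.89 ± 0.28), Insm1, a zinc-finger factor of IPC formation, 8.79-fold (3.14 ± 0.33), Hes6 7.03-fold (2.81 ± 0.21), Dll1 8.34-fold (3.06 ± 0.43) and Btg2, an antiproliferative gene of neurogenic divisions, 5.22-fold higher (2.38 ± 0.15). Their edgeR adjusted p-values lay between 5.26e-05 and 0.00326. In each case the libraries of the 2 populations did not overlap.

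Cdkn1c and Mfap4 depended on the cells in the RGC gate. Cdkn1c stood at 236 and 199 CPM in RGCs and was not called (log2 -0.37 ± 0.25). Without the vascular, meningeal, hem and choroid plexus cells it fell to 0.966 and 6.80 CPM in RGCs and the difference was 5.16 (edgeR adjusted p = 0.00126, over all alternatives 0.00126 to 0.953). Mfap4 went from 74.3 and 148 CPM to 6.76 and 27.2 CPM in RGCs, and its difference from 0.60 ± 0.31 (not called) to 2.96 (edgeR adjusted p = 0.00330, over all alternatives 0.00330 to 0.427).

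RGC genes were lower in 10 of 23 cases and higher in none (median log2 -1.05), among them Fabp7 (log2 -1.64 ± 0.22), Id4 (-1.39 ± 0.25) and the Notch effector Hes1. Sox2 (-0.48 ± 0.23) and Pax6 (-0.17 ± 0.24) were not called. Notch pathway genes went in both directions, with Dll1, Dll3, Hes6, Mfng, Numbl, Maml3 and Rbpj higher and Notch2, Hes1, Hey1 and Dlk1 lower of 22 tested (median log2 -0.13). Early neuronal genes were higher in 14 of 25 cases, with Rbfox1 as the exception that was lower (median log2 1.97). The counts were 14 and 1 again without the Reln-rich cells, and the median was 1.2. Rbfox1 was no longer called, nor any other of these genes as lower, without the cells of other types. Elavl2 stood at 1049 and 1052 CPM in members and at 107 and 109 CPM in RGCs (10.3-fold, log2 3.37 ± 0.21, edgeR adjusted p = 5.26e-05). Of 25 migration genes, 9 were higher and Flrt2 and Svil lower (median log2 0.89), and of 22 delamination genes Insm1, Scrt1 and Scrt2 were higher and Snai1 and Plekha7 lower (median log2 0.23). Without the vascular, meningeal, hem and choroid plexus cells, Insm1, Scrt2 and Ctnna2 of 20 delamination genes were higher and only Plekha7 was lower, and without the Reln-rich cells Akna and Ctnnb1 were higher too. Without the Reln-rich cells, 6 migration genes were higher, Nrp2, Robo2 and Unc5d not among them, and Flrt2 and Flrt3 lower (median log2 0.18). Without the cells of other types, 10 of 23 were higher (median log2 1.67), and Svil changed sign (log2 0.84). The zinc-finger gene St18 (log2 8.02 ± 0.78) and the neural factor Myt1 (5.66 ± 0.33) led the higher genes with Neurod1 (6.75 ± 0.78), Clvs1 and Trpc4.

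Receptors that could receive interneuron signals were followed as a list of 25 genes. Of 21 tested, Lrp8, Ephb1 and Sstr2 were higher than in dividing IPCs and none lower (median log2 0.41), though Lrp8 and Sstr2 were not called with the gate on thinned UMIs or with thinned sums. Against Eomes-retaining neurons, Ephb1 was higher and 6 genes were lower, among them Epha3, Epha4, Epha5, Gria2 and Sstr2 (median log2 -0.16). Against RGCs, 6 genes were higher, among them Lrp8, Ephb2, Sstr2 and Epha3, and Npy1r was lower (median log2 0.35). Without the vascular, meningeal, hem and choroid plexus cells, 4 of 18 were higher and only Vldlr was lower. Over all genes tested, 2.04% were higher and 3.62% lower against dividing IPCs. The shares were 3.7% and 3.12% against Eomes-retaining neurons and 5.74% and 6.19% against RGCs. The 1 gene higher against Eomes-retaining neurons and the 1 lower against RGCs lay near these shares. Epha4, a receptor for ephrins, was present throughout, at 648 and 615 CPM in the members, 525 and 543 CPM in dividing IPCs, 527 and 513 CPM in RGCs and 818 and 867 CPM in Eomes-retaining neurons. Only the last difference was called (log2 -0.48 ± 0.12, edgeR adjusted p = 0.0471), and 6 of 15 alternatives lost it (adjusted p 6.85e-06 to 0.552). Epha4 was called under 1 of 15 alternatives against each of dividing IPCs and RGCs. Nlgn1, which encodes the neurexin partner neuroligin 1, stood at 1608 and 1943 CPM in the members and was called in none of the 3 comparisons (log2 0.01 ± 0.25, 0.71 ± 0.25 and 0.52 ± 0.25 against dividing IPCs, Eomes-retaining neurons and RGCs). With all genes of at least 1 count tested, it was called against Eomes-retaining neurons (edgeR adjusted p = 0.00199, over all alternatives 0.00199 to 0.429) and RGCs (0.0445, over all alternatives 0.0445 to 0.352). Ephb1 was at 408 and 362 CPM in members and 5.83 and 30.6 CPM in dividing IPCs (log2 4.47 ± 0.46, edgeR adjusted p = 0.00148). Erbb3, Npy1r and Sstr4 had no UMI in any member.

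Of the 12635 genes tested, 15 were called as higher in the members in all 3 comparisons and 3 as lower (Racgap1, Ncapd2 and Ppt2). The 3 comparisons share the members' sums. Besides Gadd45g, the higher genes were Chd7, Chn2, Zbtb20, Tead1, Hsph1, Prox1, Dlgap2, Alpk1, Tesc, Mgat4c, Rbm24, Grk3, Pappa2 and Gm29521. Chd7, a chromatin remodeller, was at 1091 and 1189 CPM in the members, against 677 and 680 CPM in dividing IPCs, 558 and 560 CPM in Eomes-retaining neurons and 469 and 440 CPM in RGCs. The Rac regulator gene Chn2 was at 612 and 571 CPM, against 122 and 141, 308 and 351, and 118 and 102 CPM. Both genes lay above every other population in both libraries.

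The 15 genes differed in how many members carried them. Gadd45g, Chd7, Chn2, Zbtb20, Tead1 and Hsph1 were found in 87.8% of members or more in either library. Mgat4c was found in 3 of 25 and 2 of 49 members, and its 2 highest cells held 95.3% and 100% of its UMIs. Tesc was found in 5 and 7 members, Pappa2 in 7 and 6 and Gm29521 in 5 and 7. Prox1 and Zbtb20, factors known from the hippocampal primordium, were carried by 11 of 25 and 21 of 49 members and by all members. Without the Reln-rich cells, 9 of the 15 were again called in all 3 comparisons, and Zbtb20, Prox1, Mgat4c, Tesc, Pappa2 and Gm29521 were not. Without the vascular, meningeal, hem and choroid plexus cells, 5 were: Gadd45g, Chd7, Chn2, Zbtb20 and Rbm24. Gadd45g, Chd7, Chn2 and Rbm24 were thus called under both. Over 15 alternatives, Chn2 was called in all 3 comparisons under 14, Gadd45g and Chd7 under 13 each and Rbm24 under 8. The gate on thinned UMIs kept only Chn2 of the 15 genes. With the library as block, 10 of the 15 were called in all 3 comparisons, and Alpk1, Tead1, Tesc, Rbm24 and Gm29521 were not. Against dividing IPCs the blocked edgeR adjusted p was 0.0625 for Alpk1, 0.0545 for Tead1 and 0.0542 for Tesc. Of the 15 genes, 10 had an entry in the promoter table. CAGCTG occurred in 4 (Gadd45g, Chn2, Hsph1 and Mgat4c), CAGATG in Prox1 and GGTGTNA in Gadd45g.

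**Figure D4:**
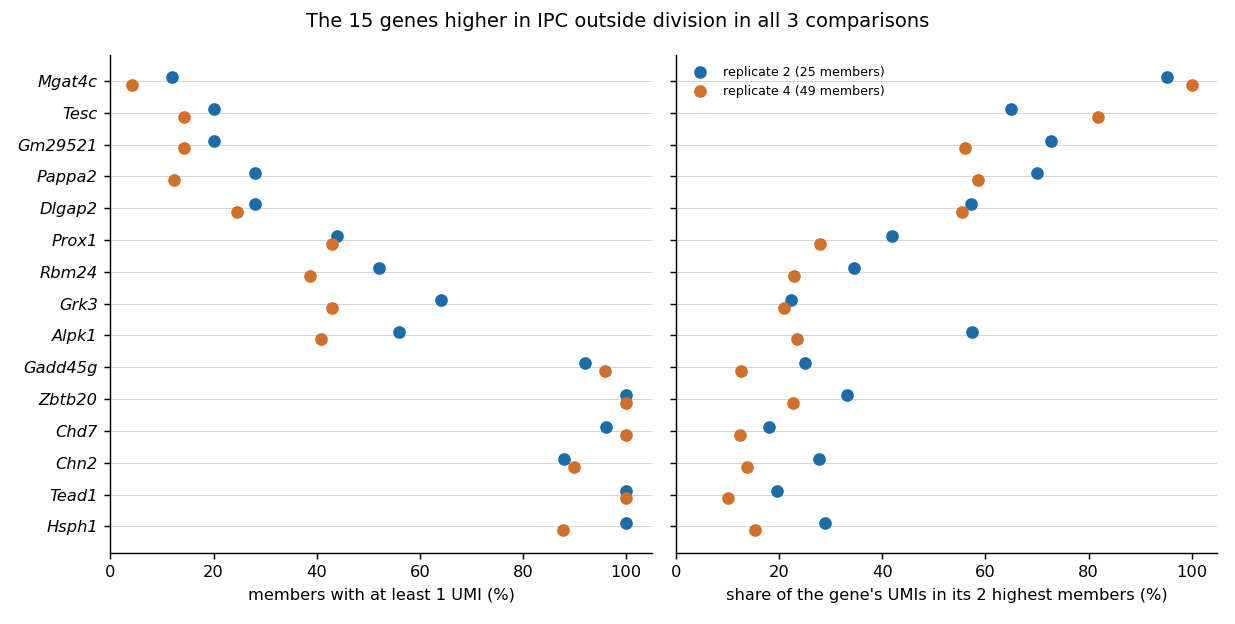
For the 15 genes higher in the members in all 3 comparisons, the share of members with at least 1 UMI (left) and the share of the gene's UMIs held by its 2 highest members (right), in percent, for replicate 2 (25 members) and replicate 4 (49 members). Mgat4c and Tesc rest on few cells, whereas Chd7 and Tead1 are spread over nearly all members.

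S-phase genes varied among the members. A cell was given an S-phase profile where its 25 S-phase genes per 10000 UMIs exceeded the 95th percentile of Eomes-negative neurons, 4.07 and 4.53 in replicates 2 and 4. This held for 9 of 25 members (36%, exact 95% binomial interval 18.0 to 57.5) and 26 of 49 (53.1%, 38.3 to 67.5), although Mki67 and Top2a were low by choice. The share was 91.7% and 100% in dividing IPCs, 62.3% and 73.3% in RGCs and 25.4% and 19.9% in Eomes-retaining neurons. The score is a range without a gap. Its median in members was 3.26 and 5.58 per 10000 UMIs, 10 and 11 members lay within 1 of the limit, and only 2 of 25 but 14 of 49 exceeded 10. With the 99th percentile as limit, the shares were 8% and 44.9%, so the libraries differed in the upper range. Counts in free RNA can add to such a score, and their part was not tested.

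**Figure D5:**
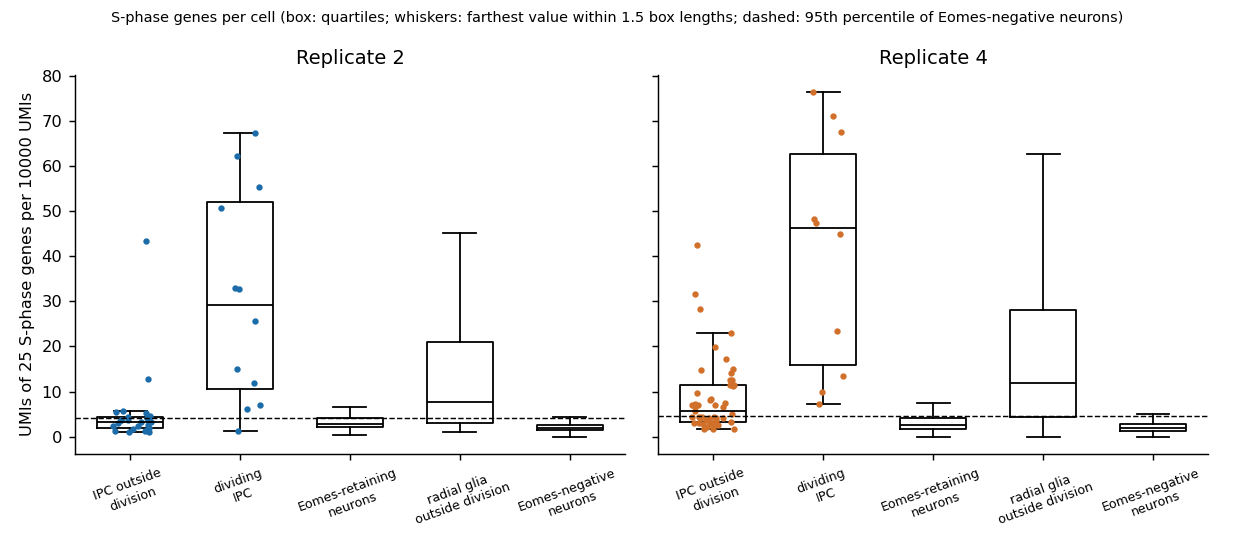
UMIs of 25 S-phase genes per 10000 UMIs of a cell in each population of replicate 2 (left) and replicate 4 (right). Boxes span the quartiles, whiskers reach the farthest value within 1.5 box lengths, points show the single IPCs and the dashed line is the limit. Members reach from below the line to about 43, and dividing IPCs lie mostly above it.

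Members with and without an S-phase profile are described without a test. Ccnd2, a cyclin gene of G1 phase, stood at 457 and 775 CPM in those with the profile and 444 and 419 CPM in those without. Fabp7 was at 846 and 709 CPM against 281 and 218 CPM, and Cdkn1c at 31.9 and 77.1 CPM against 292 and 191 CPM. Fabp7 differed in the same direction in both libraries. For Cdkn1c the direction in replicate 2 rested on 2 cells, without which members lacking the profile had 15.2 CPM, below the 31.9 CPM of those with it. In replicate 4, members lacking the profile had 93.8 CPM without their 2 highest cells, against 77.1 CPM. Eomes (361 and 632 against 447 and 562 CPM) and Neurog2 (591 and 794 against 663 and 753 CPM) had no common direction.

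A second axis followed the traces of Neurod2 and Neurod6 allowed by the gate. The 14 and 17 members without any such UMI had 452 and 467 CPM of Gadd45g, against 1031 and 833 CPM in the 11 and 32 members with 1 or 2. Cdkn1c was at 6.85 and 31.2 CPM against 419 and 187 CPM (48.2 and 117 CPM without the 2 highest cells of each library), Sstr2 at 13.7 and 12 CPM against 73.2 and 68.6 CPM, and Mfap4 at 114 and 59.9 CPM against 278 and 181 CPM. Fabp7 ran the other way, at 743 and 722 CPM against 208 and 335 CPM, and so did Pax6, at 169 and 149 CPM against 87.9 and 104 CPM. Neurog2, at 622 and 707 CPM against 650 and 812 CPM, was close in both. Median depths were 33189 and 21691 UMIs without and 31218 and 24777 UMIs with these traces.

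Neurod1, which the gate did not use, had a median of 0 UMIs in the members, so a split at the median set the 7 and 9 members with any Neurod1 UMI against the 18 and 40 without. None of 6547 tested genes was called with edgeR (0.0%), where 550 had an unadjusted p under 0.05, and DESeq2 called 20. Tubb3 stood at 654 and 390 CPM in members with Neurod1 and 167 and 189 CPM in those without (log2 1.55 ± 0.32, edgeR adjusted p = 0.431). Mfap4 was at 290 and 258 CPM against 143 and 106 CPM, and Pax6 at 70.2 and 69.7 CPM against 160 and 133 CPM. None of these 3 genes was called. Tubb3 (adjusted p 0.000450 to 0.852) and Mfap4 (0.0404 to 0.852) were each called under 1 of 14 alternatives, Tubb3 with all genes of at least 1 count and Mfap4 with the gate on thinned UMIs.

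The 6 Reln-rich members, a set chosen after their values were seen, stood apart from the other members. The 5 cells of replicate 2 had 164 CPM of Neurog2, 203 of Gadd45g, 14.5 of Btg2 and 19.3 of Insm1, against 805, 889, 271 and 275 CPM in the other 20. Tubb3 was higher, at 603 against 203 CPM, and so was Emx2, a patterning factor of the medial cortex, at 251 against 85.7 CPM. Calb2, a calcium-binding protein of Cajal-Retzius cells, was at 62.7 CPM against 0, with UMIs in 2 members of replicate 2. As means of both libraries, Ebf3 of the Cajal-Retzius list ran the other way, at 4.82 against 32.1 CPM. Lhx5 of that list was at 14.5 against 0.44 CPM. Ebf2, outside the list, was at 0 against 34.2 CPM. The 1 cell of replicate 4 had 101 CPM of Neurog2 and 604 CPM of Gadd45g, with no UMI of Insm1. Trp73, a defining gene of hem-derived Cajal-Retzius cells, was at 0 in all by the gate, and Lhx1 was at 0 in all members. Leaving out the cells with at least 10 Reln UMIs from every population kept Gadd45g, Chd7 and Chn2 as called in all 3 comparisons. Leaving out only the 6 members was not tested.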

How the data were processed

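Single-cell RNA of 2 WT libraries (dorsal telencephalon, embryonic day 14.5, numbered as separate samples in the labels) was measured with the 10x 3' chemistry on polyA RNA. The deposited matrices hold UMI counts per gene and barcode that the authors made with Cell Ranger 7.0.0 on mm10 (submitters' processing notes), with no normalisation. Whether intronic reads were counted is not given in the sources used here.

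Cells with at least 1000 genes and at most 10% mitochondrial UMIs were retained. Total UMIs were 40267872 and 49422007 and the retained cells' median 30872 and 23007. Doublets were called with Scrublet in scanpy 1.11.5 and kept. UMIs of each gated population were summed per library and tested with edgeR 4.0.16 in R 4.3.3 (filterByExpr, TMM, quasi-likelihood test over 5 populations in 2 libraries, Benjamini-Hochberg adjustment). Cells were never used as replicates. DESeq2 1.42.0 was an alternative.

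Same-numbered sums come from the same library, and their deviations correlated by 0.019 to 0.268 over 10 population pairs. A fit with the library as replicate block was an alternative. On simulated counts the test recovered 61.5% (dividing IPCs), 80% (Eomes-retaining neurons), 75% (RGCs) and 53% (Neurod1 split) of 200 genes changed by 2 on the log2 scale.

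The members and the gene lists were chosen with earlier results of these data known. Named genes were a fixed set of 18, the called genes of largest fold change (up to 6 per direction, at least 50 CPM, same sign in both libraries), those called in all 3 comparisons (up to 12 higher and 6 lower), and up to 4 called genes per list. Genes named outside this rule (marker checks, the genes of the Reln-rich cells, and further called members of a list such as Cxcl12, Hes1, Hey1 and Gria2) were chosen after their values were seen. Some genes are not reported here.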

Additional observations from a re-analysis of the deposited data

How the results depend on the processing

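The number of genes called depended on the settings more than the direction of the named genes did. Against dividing IPCs, 716 genes became 1082 with DESeq2, 323 with at least 5 Eomes UMIs, 362 with UMIs split between gate and test, 256 with only the 2 populations fitted, 198 with thinned UMIs summed and 1461 with all genes of at least 1 count (769 higher and 692 lower, against 258 and 458). Against Eomes-retaining neurons, 862 became 1456 with DESeq2, 1900 with all genes, and 1316 without cells of at least 10 Reln UMIs (611 higher and 705 lower, against 468 and 394). Against RGCs, 1507 became 2480 with all genes, 2734 with the gate on thinned UMIs, 893 with thinned UMIs summed and 939 without vascular, meningeal, hem and choroid plexus cells. The Neurod1 split went from 0 to 20 with DESeq2, 361 with all genes and 21 with the thinned gate. The share of members went from 2.28% (mean of both libraries) to 1.86% with at least 5 Eomes UMIs, 3.12% with split UMIs and 3.66% with the thinned gate, and was 2.06% to 2.49% with 1 library left out. The S-phase share went from 44.5% to 26.4% with the 99th percentile, and was 36% to 53.1% with 1 library left out. The causes were not tested.

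With the library as replicate block, 673, 885 and 1489 genes were called in the 3 comparisons and 2 in the Neurod1 split. The block did not move any of the first 3 counts by over 1.5 times. Among named genes it also gained the call of Pax6 (adjusted p = 0.0452) and lost that of Plxna2 (0.0532) against Eomes-retaining neurons, and lost those of Ptprz1 (0.0552) and Snai1 (0.0664) against RGCs.

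The log2 fold change of single genes turned sign in a few cases. Against dividing IPCs these were Ccnd2 (0.18, split UMIs), Fabp7 (0.42), Hes6 (-0.15) and Nes (0.26) with the thinned gate, Insm1 without Reln-rich cells (0.0286) and with thinned sums (0.0784), Neurog1 with DESeq2 (-0.0175), at least 5 Eomes UMIs (-0.42), split UMIs (-0.0905), the thinned gate (-0.64) and thinned sums (-0.59), and Nlgn1 with DESeq2 (-0.0192), its size factors (-0.0192), at most 5% mitochondrial UMIs (-0.0301), only 2 populations (-0.000342) and thinned sums (-0.00765). Against RGCs these were Cdkn1c with split UMIs (0.0292) and without cells of other types (5.16), Epha4 (-0.10) and Svil (0.84) without those cells, and Ttr with the thinned gate (0.35). With settings other than a left-out library, 3161 log2 fold changes of named genes were recomputed. Of these, 2851 kept direction and side of the threshold, 253 lost the call, 36 gained one and 21 turned sign. The fit for a left-out library has no residual degrees of freedom, so those gene values carry no test.

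The 2 cell-type exclusions were chosen after seeing the data. The dividing IPCs were 22 cells, with the lowest summed UMIs of the populations.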
